A study of Mus musculus with 18 samples.

Results

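The genes described here encode the proteins of the mitochondrial ribosome. They are the 78 genes of 34714 in the expression table whose symbol is Mrpl or Mrps followed by a number and at most 1 of the letters a to c, 49 named for the large subunit (Mrpl) and 29 for the small subunit (Mrps). The choice rests on the symbol alone and on no measured value. The libraries came from hearts of C57 mice, wild type or Kcp knockout. In each genotype 1 group had sham surgery and the other had transverse aortic constriction (TAC), which narrows the aortic arch and makes the left ventricle pump against a higher pressure. Wild-type hearts gave 4 libraries after sham surgery and 5 after TAC, and Kcp knockout hearts gave 4 and 5. For age, sex, the time after surgery and the extent of the Kcp deletion, the sources used here give nothing. The tissue was whole heart RNA, in which fewer cells of a type and less RNA per cell cannot be told apart.

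Mitochondria carry their own genome, and the few proteins it encodes, all of them core parts of the respiratory chain and of ATP synthase, are made on a ribosome inside the organelle. The RNA of that ribosome comes from the mitochondrial genome, but its proteins are encoded in the nucleus, made in the cytosol and imported. The large subunit forms the peptide bonds and holds the exit tunnel through which the new chain leaves towards the inner membrane, and the small subunit binds the messenger RNA and decodes it. Some of the proteins descend from bacterial ribosomal proteins and others arose with mitochondria. The heart is rich in mitochondria, and inherited defects of several of these genes, among them Mrpl3, Mrpl44 and Mrps22, cause cardiomyopathy in humans.

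Kcp encodes a secreted modulator of BMP and TGF-beta signalling and was low in every library. In wild-type hearts it was at 0.794 to 1.43 FPKM after sham surgery and 0.985 to 1.48 after TAC, and in knockout hearts at 0.624 to 0.673 and 0.494 to 0.952. Every knockout library was below every wild-type library of the same surgery, but none was at 0. Values are FPKM (fragments scaled by transcript length and library total), which allows levels to be compared between genes. The depth of the libraries is unknown, and the summed FPKM ran from 390453 to 432264 per library. The name of the library of knockout sham replicate 2 joins those of replicates 3 and 4. It was therefore left out of every test but an alternative fit of all 18 libraries, and its values are given apart for some genes. The name of knockout TAC replicate 4 also joins a pair of names, neither of them that of another library, and it was kept. Nothing in the labels says that every library had its own mouse, so p-values measure the spread between these samples. The libraries also fell into 2 sets. Ndufb4c was at 35.9 to 49.4 FPKM in wild-type sham and wild-type TAC replicates 1 to 4, and at 4.47 to 11.2 in every knockout library and in wild-type TAC replicate 5. Genotype and set therefore differ through 1 library alone, and results between genotypes are given with a term for the set as well. Cardiomyocyte markers were abundant in all groups (Myh6, the adult myosin heavy chain, at 3801 to 6087 FPKM), the tissue the labels give.

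All 78 genes reached 1 FPKM in at least 3 libraries and entered the test with 11937 genes in all. Their mean over the 17 tested libraries spanned 5.77 FPKM for Mrpl19 to 414.1 FPKM for Mrpl42, with a median of 35.7. The large subunit ran from 5.77 to 414.1 FPKM (median 38.8) and the small subunit from 7.59 to 157.2 (median 32.2). Mrpl42, a protein found in mitochondrial ribosomes alone, stood far above the rest, at 463.6 ± 12.9 FPKM in wild-type sham (SD, n = 4). Next came Mrpl30 (164.8 ± 4.35), Mrps21 (168.2 ± 9.13) and Mrpl12 (126.6 ± 6.45), and Mrpl30 and Mrps21 did not differ beyond their spread. At the low end stood Mrpl19, Mrpl17 and Mrps25, at 5.77, 5.99 and 7.59 FPKM over the 17 libraries. Mrpl12 is the stalk protein, present in several copies per ribosome, while the others occur once. Within a group the median coefficient of variation of a gene was 6.72% and 6.63% in wild-type sham and TAC, and 6.83% and 9.45% in knockout sham and TAC. Together the 78 genes held 0.846% to 1.04% of the summed FPKM of a library.

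The genes are spread over 17 chromosomes, with 11 of them on chromosome 11 (GENCODE M21, GRCm38). The stretch before the start of a gene is shown for 3 of them because their values carry the comparisons below. Mrps31 passed the test for an interaction of genotype and TAC, though not in every alternative fit. Mrpl34 had the largest difference between genotypes in sham hearts. Mrps21 was the most abundant small-subunit gene. Each line holds 240 bases of the coding strand, from 250 to 11 bases before the RefSeq start (GRCm38.p6), 5′ to 3′, with capitals marking the match to a searched motif. Mrps31 lies at chr8:22411090-22411329 on the plus strand and held no match, Mrpl34 at chr8:71464676-71464915 on the plus strand with an ETS match, and Mrps21 at chr3:95871525-95871764 on the minus strand with an NRF1 match on the opposite strand.
Mrps31: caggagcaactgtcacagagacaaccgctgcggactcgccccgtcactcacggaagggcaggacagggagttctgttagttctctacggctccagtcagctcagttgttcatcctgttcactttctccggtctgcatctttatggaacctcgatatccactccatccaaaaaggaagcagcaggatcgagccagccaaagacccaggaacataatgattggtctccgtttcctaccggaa
Mrpl34: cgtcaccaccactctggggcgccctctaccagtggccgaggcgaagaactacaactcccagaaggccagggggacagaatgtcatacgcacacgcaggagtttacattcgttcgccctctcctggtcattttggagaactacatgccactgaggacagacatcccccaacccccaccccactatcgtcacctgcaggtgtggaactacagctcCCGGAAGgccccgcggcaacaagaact
Mrps21: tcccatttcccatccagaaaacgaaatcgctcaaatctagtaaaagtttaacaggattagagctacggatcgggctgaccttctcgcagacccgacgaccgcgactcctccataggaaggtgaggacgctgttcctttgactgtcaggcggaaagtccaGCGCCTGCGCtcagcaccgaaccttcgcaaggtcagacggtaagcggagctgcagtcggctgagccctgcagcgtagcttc

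NRF1, GABP (a factor of the ETS family) and YY1 are known activators of nuclear genes for mitochondrial proteins. Their motifs were searched by their letters: for NRF1, GCGC, then A and any base, then GCGC; for ETS factors, CCGGAAG; for YY1, AAGATGG followed by CGG. The search covered both strands of the 300 bases from 250 before to 50 after the RefSeq start, which 69 of the 78 genes had. The ETS motif was in 24 of 69 windows (34.8%), against 18.5% of 9593 tested genes and 9.14% of all 27025 windows. The NRF1 motif was in 13 (18.8%), against 10.6% and 4.82%, and the YY1 motif in 5 (7.25%), against 2.23% and 0.899%. At least 1 of the 3 was in 36 windows (52.2%), against 28.4% of tested genes and 13.6% of all. Of the 35 windows of genes that fell after TAC in knockout hearts 51.4% held one, and of the other 34 windows 52.9%. The ERR motif TCAAGGTCA was in no window of the group and in 0.261% of tested genes, and the E-box CACGTG was in 5 (7.25%), against 10.3%. A match is a description of the letters and not evidence of binding.

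In wild-type hearts the mean level of the set overlapped between sham and TAC. Mean log2(FPKM + 1) over the 78 genes was 5.20, 5.26, 5.21 and 5.32 in wild-type sham and 5.28, 5.26, 5.25, 5.20 and 5.27 in wild-type TAC. The groups overlapped, and their means were 5.25 ± 0.0546 (SD, n = 4) and 5.25 ± 0.0323 (SD, n = 5). Exactly as many genes were above 0 as below it, 39 each, and the median log2 change was 0.0017, against -0.0080 over all genes tested. By limma with Benjamini-Hochberg adjustment at 0.05, 5 genes were higher and 5 lower after TAC, 6.41% in each direction, where 10.7% of all genes were higher and 11.2% lower. Both subunits had calls in both directions, with 1 higher and 4 lower of 49 in the large subunit and 4 higher and 1 lower of 29 in the small one.

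**Figure D1:**
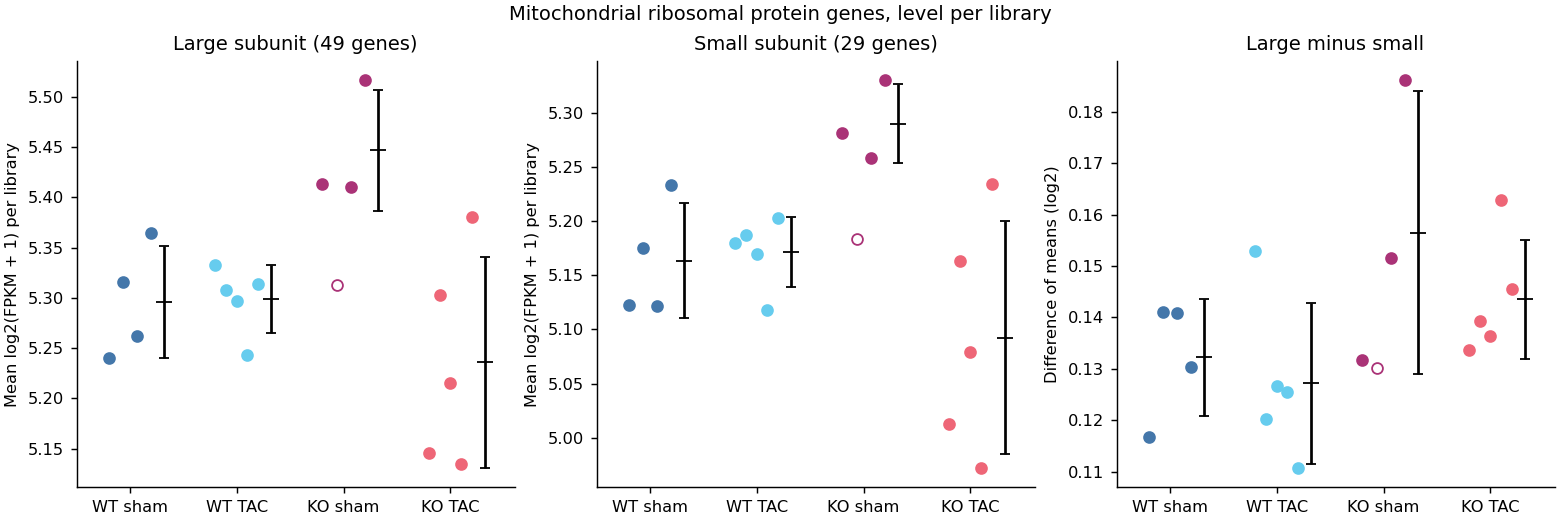
Mean log2(FPKM + 1) of the 49 large-subunit and 29 small-subunit genes, and their difference, in each library by group. Points are libraries, bars are mean ± SD, and the open circle is knockout sham replicate 2, outside the tests. By group mean of the tested libraries both subunits are highest in knockout sham and lowest in knockout TAC, while their difference stays between 0.111 and 0.186.

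The genes that fell in wild-type hearts included some of the most abundant. Mrpl14, a protein at the face of the large subunit that meets the small one, was at 75.1, 77.1, 81.5 and 88.9 FPKM in wild-type sham and at 65.6, 63.5, 63.1, 64.2 and 67.3 in wild-type TAC. Every TAC library was below every sham library, and the log2 change was -0.31 ± 0.0598 (SE; limma with Benjamini-Hochberg adjusted p = 0.00139). Mrpl42 went from 463.6 ± 12.9 to 395.0 ± 17.2 FPKM (log2 change -0.23, adjusted p = 0.0129). Mrpl23, at the mouth of the exit tunnel, went from 108.0 ± 9.01 to 85.2 ± 5.39 FPKM (log2 change -0.34, adjusted p = 0.000756). These 3 kept their calls whichever of the 17 libraries was left out. The call of Mrpl28 (-0.27, adjusted p = 0.0496) held in 7 of 17 such fits, with an adjusted p of up to 0.156 without wild-type sham replicate 4. That of Mrps21 (-0.17, adjusted p = 0.0331) held in 13 of 17 and was lost without wild-type sham replicate 2 or 4 (0.0837 and 0.111) or wild-type TAC replicate 3 or 4 (0.0819 and 0.0554).

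Of the genes that rose in wild-type hearts, Mrps23, a small-subunit protein specific to mitochondria, was at 88.8, 92.9, 95.7 and 97.6 FPKM in sham and at 116.2, 120.0, 118.7, 105.7 and 111.6 after TAC. The groups did not overlap, and the log2 change was 0.28 ± 0.0607 (limma with Benjamini-Hochberg adjusted p = 0.00296). Mrpl20, whose bacterial counterpart binds ribosomal RNA early in assembly, went from 23.8 ± 1.27 to 29.3 ± 2.26 FPKM (log2 change 0.29, adjusted p = 0.0067). Mrps18b, 1 of 3 mitochondrial relatives of a bacterial small-subunit protein, was at 29.75, 26.3, 26.5 and 26.9 FPKM in sham and at 34.45, 37.8, 33.4, 30.9 and 33.0 after TAC, again without overlap (log2 change 0.30 ± 0.0862, adjusted p = 0.0193). The other relatives were Mrps18a, which sits in the large subunit despite its name (0.23, adjusted p = 0.0444), and Mrps18c (-0.12, adjusted p = 0.307). Mrps34 (0.21, adjusted p = 0.0496) completed the 5. Without wild-type sham replicate 2, wild-type sham replicate 3, wild-type TAC replicate 2 or wild-type TAC replicate 3 the count of calls fell from 10 to 5, 6, 6 and 6. Calls over all genes fell as well, from 2615 to 2135, 2043, 2199 and 2014. Mrps18b, Mrps18a and Mrps34 kept their calls in 14, 9 and 6 of the 17 fits. Mrps18b lost its call without wild-type sham replicate 2 or 3 (adjusted p = 0.0538 and 0.0519) or wild-type TAC replicate 2 (0.051), and the adjusted p of Mrps18a and Mrps34 rose as far as 0.131 and 0.132. In all, 6 genes lay wholly above and 6 wholly below sham, where 10.5% and 11.1% of all genes did.

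In knockout hearts 38 of the 78 ribosome genes fell after TAC, 1 rose and 39 did not pass. The mean log2(FPKM + 1) over the 78 genes was 5.36, 5.35 and 5.45 in the 3 knockout sham libraries and 5.10, 5.25, 5.16, 5.07 and 5.33 after TAC. All 5 TAC libraries lay below all 3 sham libraries, and knockout sham replicate 2, outside the fit, was at 5.26, inside the range after TAC. The 38 lower genes are 48.7% of the set and the 1 higher gene is 1.28%, where 17.7% of all genes were lower and 21.1% higher (limma with Benjamini-Hochberg adjustment). The median log2 change was -0.21, against 0.014 over all genes, and 70 of 78 genes were below 0 (89.7%, against 48.1% of all genes). In 32 genes every TAC library was below every sham library and in 0 genes above, where 16% and 19.8% of all genes were. With knockout sham replicate 2 included, 34 genes were lower and 2 higher, and the median was -0.17. Without knockout sham replicate 4 the count of calls fell from 39 to 24, with a median of -0.17 (all 24 lower). Over all genes calls went from 4633 to 4056 in that fit, with 15.8% of all genes lower.

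**Figure D2:**
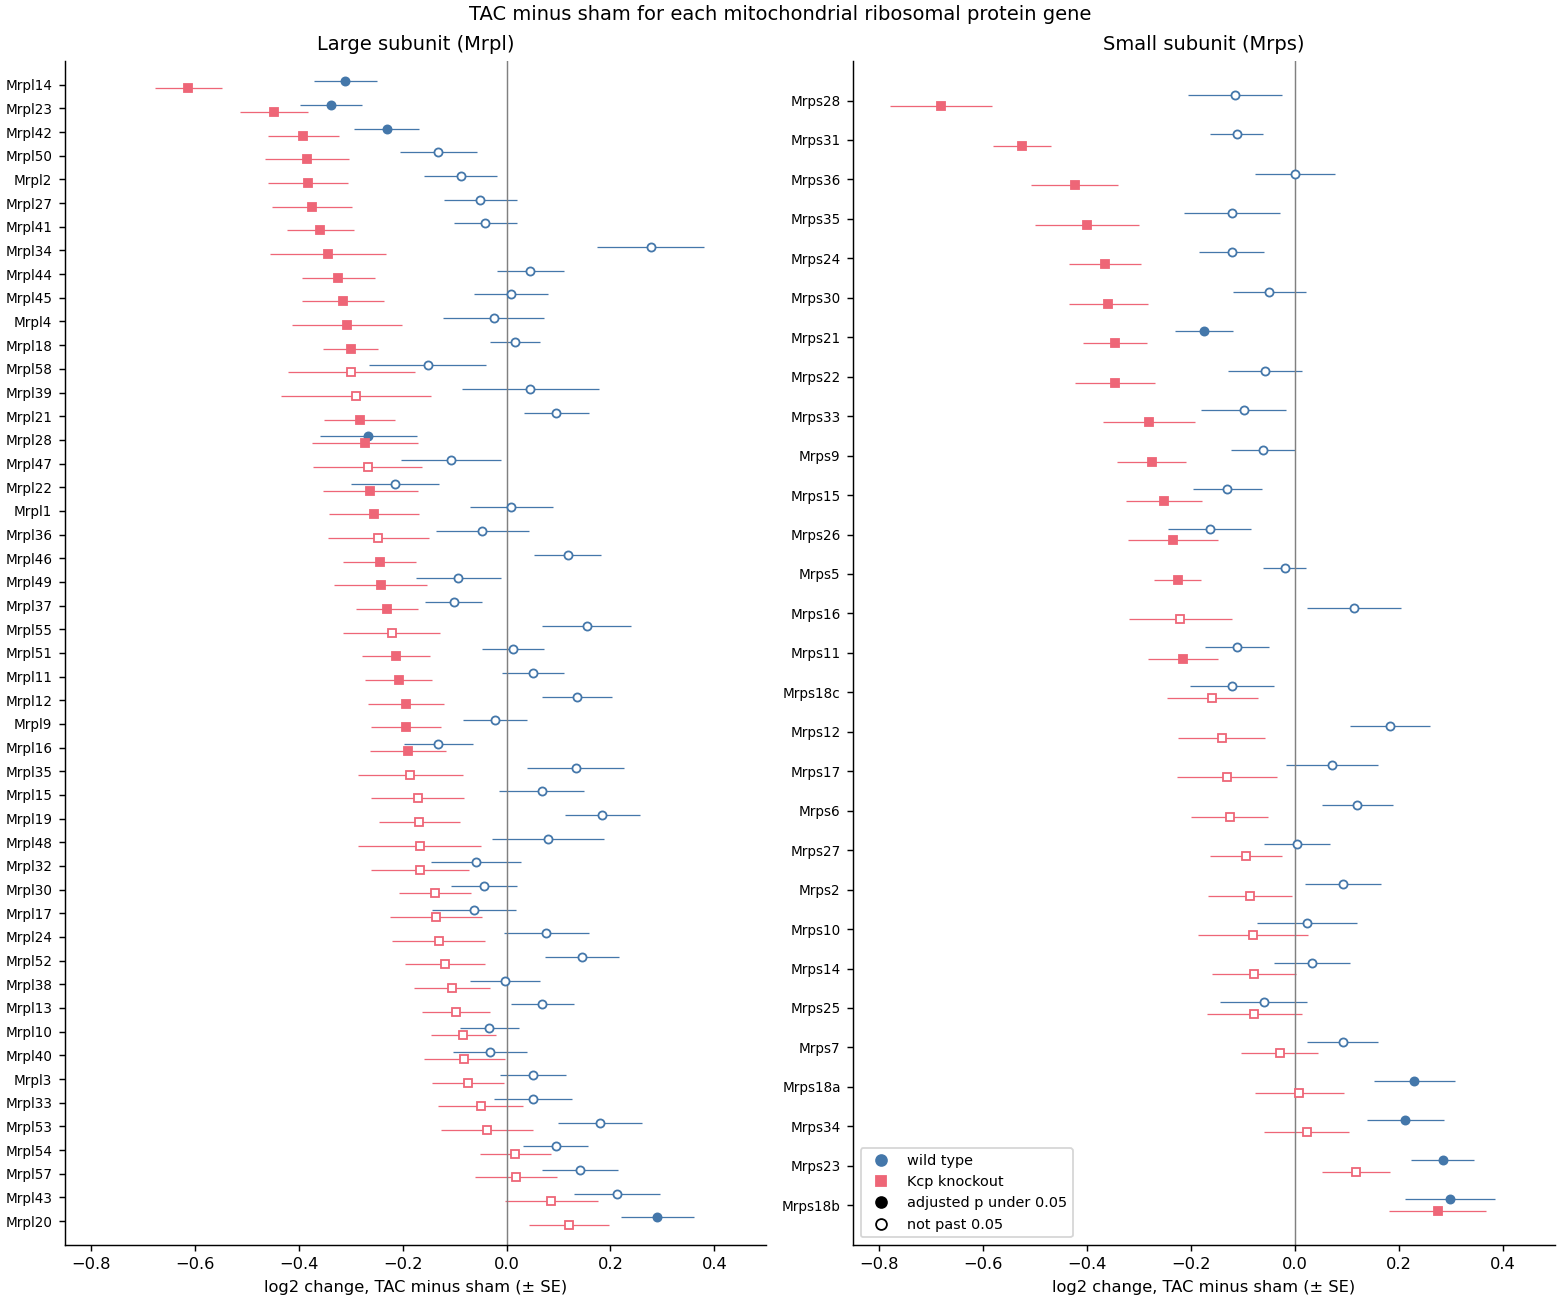
Log2 change from sham to TAC, with its SE, of each of the 78 genes in wild-type hearts (circles) and knockout hearts (squares), for the large subunit on the left and the small one on the right, ordered by the change in knockout. Filled symbols passed an adjusted p of 0.05. The squares of 70 genes lie below 0, while the circles scatter about it.

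The largest fall was that of Mrps28, the mitochondrial counterpart of a bacterial small-subunit protein. It was at 37.3, 40.8 and 36.4 FPKM in knockout sham and at 20.0, 22.7, 24.9, 22.1 and 28.1 after TAC. The groups did not overlap, replicate 2 of sham (30.4) also lay above all TAC libraries, and the level fell by 37.6% (log2 change -0.68 ± 0.0983; limma, Benjamini-Hochberg adjusted p = 3.4e-05). In wild-type hearts Mrps28 was at 29.2, 34.1, 27.2 and 34.5 FPKM in sham and 28.6, 27.7, 27.0, 27.4 and 33.1 after TAC, which overlap (log2 change -0.11, adjusted p = 0.393). Mrps31, a small-subunit protein specific to mitochondria, was at 32.7, 30.5 and 28.3 FPKM in knockout sham and at 20.6, 22.9, 20.0, 19.7 and 21.1 after TAC. It fell by 30.5% without overlap (log2 change -0.53 ± 0.0555, adjusted p = 1.63e-06). In wild-type hearts every TAC library (23.2 to 24.6 FPKM) was also below every sham library (25.2 to 26.7 FPKM). The change there was smaller and did not pass (-0.11 ± 0.0510, adjusted p = 0.128). Mrpl14 was at 81.1, 95.8 and 89.0 FPKM in knockout sham and at 55.8, 60.6, 55.9, 53.6 and 61.9 after TAC. It fell by 34.6% with no overlap (log2 change -0.61 ± 0.0651, adjusted p = 1.68e-06), and was thus called in both genotypes. All 3 calls held whichever library was left out.

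**Figure D3:**
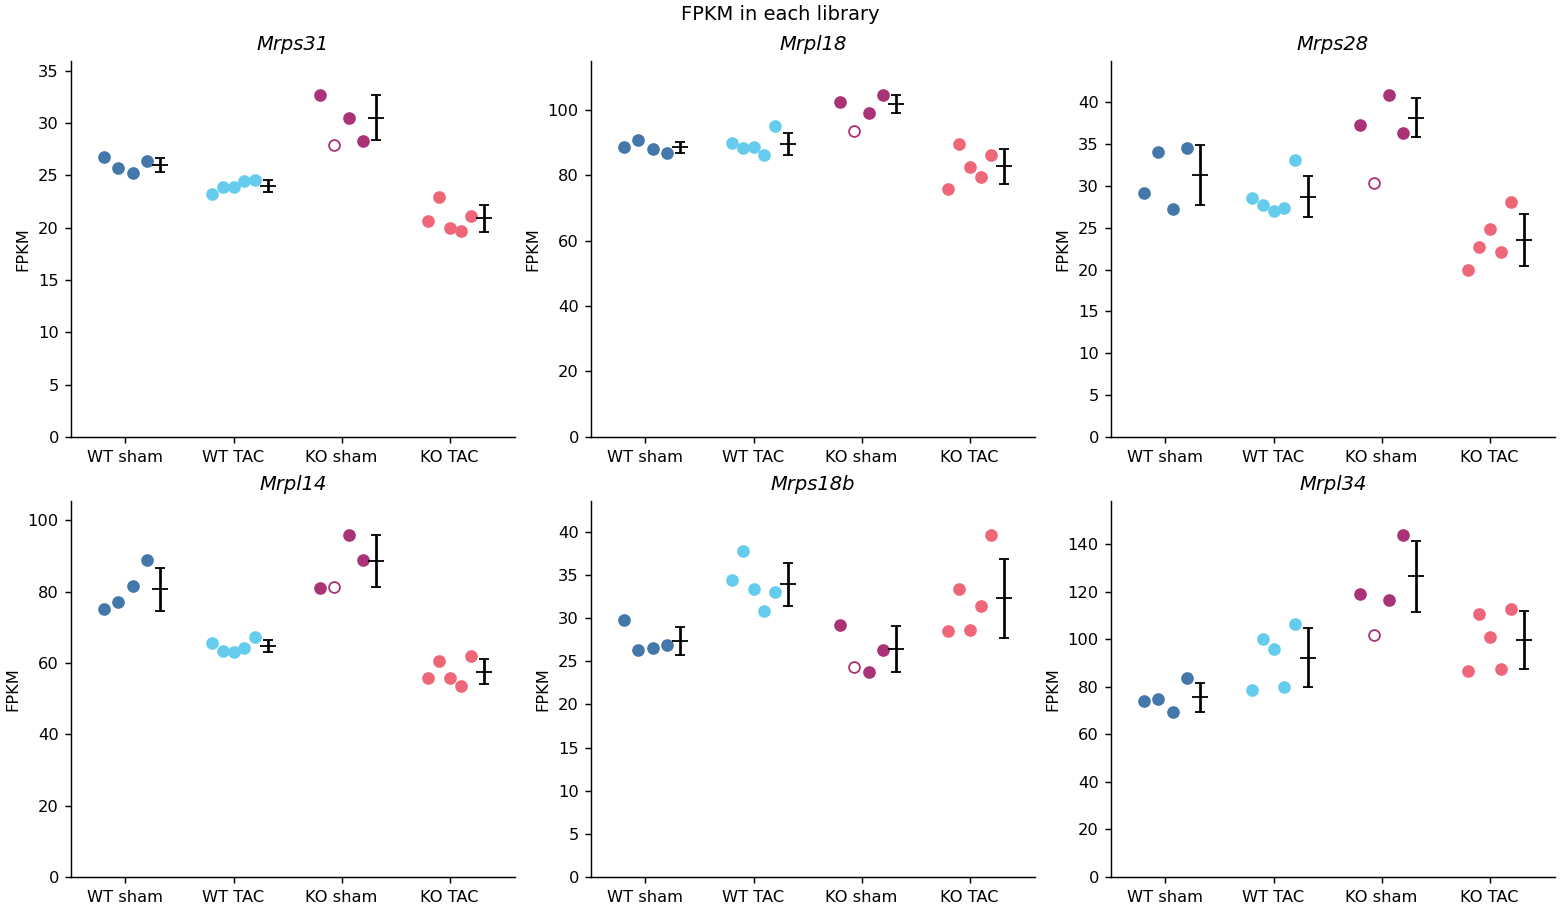
FPKM of Mrps31, Mrpl18, Mrps28, Mrpl14, Mrps18b and Mrpl34 in every library by group. Points are libraries, bars are mean ± SD of the tested libraries, and the open circle is knockout sham replicate 2. Mrps31 falls from 28.3 to 32.7 FPKM in knockout sham to 19.7 to 22.9 after TAC, and Mrps18b is the 1 gene of the 78 called higher after TAC in both genotypes.

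Falls of a similar size were seen in both subunits. Among large-subunit genes Mrpl23 (log2 change -0.45), Mrpl42 (-0.39), Mrpl50 (-0.38) and Mrpl2 (-0.38), a protein near the catalytic centre, fell in knockout hearts. Among small-subunit genes Mrps36 (-0.42), Mrps35 (-0.40), Mrps22 (-0.35) and Mrps21 (-0.35) fell. The adjusted p-values of these 8 genes ran up to 0.00416 (limma with Benjamini-Hochberg), and each call held whichever library was left out. Mrps36 was named for the ribosome but is now known as a subunit of the 2-oxoglutarate dehydrogenase complex of the citric acid cycle. Its level was 84.5 ± 4.36 FPKM in knockout sham and 63.1 ± 8.02 after TAC, and 71.6 ± 3.17 and 71.6 ± 3.53 in wild type, the smallest change of any of the 78 genes there. Of the 3 genes named above for human cardiomyopathy, Mrpl44 (-0.32, adjusted p = 0.00136) and Mrps22 (-0.35, adjusted p = 0.00166) fell in knockout hearts, and Mrpl3 did not pass (-0.07, adjusted p = 0.425). Mrpl58, which frees stalled ribosomes, did not pass either (-0.30, adjusted p = 0.0635).

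The gene that went the other way was Mrps18b, at 29.2, 23.8 and 26.3 FPKM in knockout sham and 28.6, 33.4, 28.6, 31.4 and 39.6 after TAC. The groups overlapped, and the log2 change was 0.27 ± 0.0939 (limma with Benjamini-Hochberg adjusted p = 0.0273). The call was lost without knockout sham replicate 3 (0.20, adjusted p = 0.153), knockout sham replicate 4 (adjusted p = 0.0653) or knockout TAC replicate 5 (0.20, adjusted p = 0.0566), and with the replicate block (0.22, adjusted p = 0.0796). The gene overlaps an antisense gene, Gm16279, by 638 exonic bases, and a pseudogene, Gm13552, matches it at 99.8% over 417 bases. Its counts are therefore uncertain in both genotypes. Genes with the smallest changes in knockout hearts were Mrps18a (0.0089), Mrpl54 (0.017) and Mrpl57 (0.018).

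Between the TAC comparisons, the genes lower in wild type were 5, and all 5 (Mrpl14, Mrpl23, Mrpl28, Mrpl42 and Mrps21) were also lower in knockout. They are 5 of the 38 lower there, and the other 33 did not pass in wild type. In knockout the call of Mrpl28 held in 12 of 17 fits without 1 library, with an adjusted p of up to 0.114 without knockout sham replicate 1. No gene passed in opposite directions, 1 gene (Mrps18b) was higher in both, and 35 passed in neither. Passing in 1 genotype and not in the other does not show a difference between them, which the interaction below tests.

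Within the large subunit, genes were grouped by place in the structure, in groups of 5 to 7 whose counts stand beside 17.7% of all genes lower in knockout hearts and 11.2% in wild type. Around the exit tunnel 4 of 7 (57.1%) fell in knockout hearts (Mrpl23, Mrpl44, Mrpl45 and Mrpl22), with a median log2 change of -0.29. Of the central protuberance, the crest that faces the small subunit, 3 of 7 (42.9%) fell (Mrpl27, Mrpl18 and Mrpl46), with a median of -0.24. Of the stalk, which recruits translation factors, 2 of 5 (40%) fell (Mrpl11 and Mrpl12), with a median of -0.083, and the call of Mrpl12 held in 9 of 17 fits without 1 library (adjusted p up to 0.111 without knockout sham replicate 4). In wild-type hearts Mrpl23 alone of these genes passed. By origin, 22 of 46 genes with a bacterial counterpart (47.8%) fell in knockout hearts (median -0.20), and of 32 genes specific to mitochondria 16 (50%) fell and 1 rose (median -0.23).

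The large and small subunits moved by like amounts. In knockout hearts 24 of 49 large-subunit genes fell (49%) and 14 of 29 small-subunit genes (48.3%), with medians of -0.21 and -0.22. The large-minus-small difference of mean log2(FPKM + 1) was 0.132 ± 0.0114 and 0.127 ± 0.0157 in wild type with sham and TAC, and 0.156 ± 0.0275 and 0.144 ± 0.0117 in knockout (SD, n = 4, 5, 3 and 5). It lay between 0.111 and 0.186 in all 18 libraries, and the 4 groups overlapped, while the level of each subunit ranged over more (5.14 to 5.52 for the large one and 4.97 to 5.33 for the small one). With genes placed by structure rather than by name (Mrps18a and Mrps30 in the large subunit and Mrps36 in neither), the medians in knockout hearts were -0.21 and -0.19.

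In sham hearts 3 of the 78 genes were higher in knockout than in wild type, and 75 did not pass. The difference was above 0 in 71 of 78 genes (91%, against 47.5% of all genes), with a median of 0.14 against -0.0080. Among the tested libraries 22 genes lay wholly above wild type and 0 below, where 7.27% and 8.15% of all genes did. Knockout sham replicate 2 was outside that count. Its mean log2(FPKM + 1) over the 78 genes was 5.26, inside the wild-type sham range of 5.20 to 5.32. With all 18 libraries the median difference was 0.10. The test passed 3 genes (3.85%), all higher and all of the large subunit, where 1.26% of all genes passed, 0.645% higher and 0.62% lower (limma with Benjamini-Hochberg adjustment). No small-subunit gene passed, and whether the subunits differ in this was not tested. The summed FPKM of the same libraries, over all genes, was 398920 to 413577 in wild-type sham and 414041 to 432264 in the 3 tested knockout sham libraries, without overlap, while knockout sham replicate 2, at 398304, lay below all of them. Scaling each library to the same sum lowered the median difference to 0.072, where that of all genes was -0.064.

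**Figure D4:**
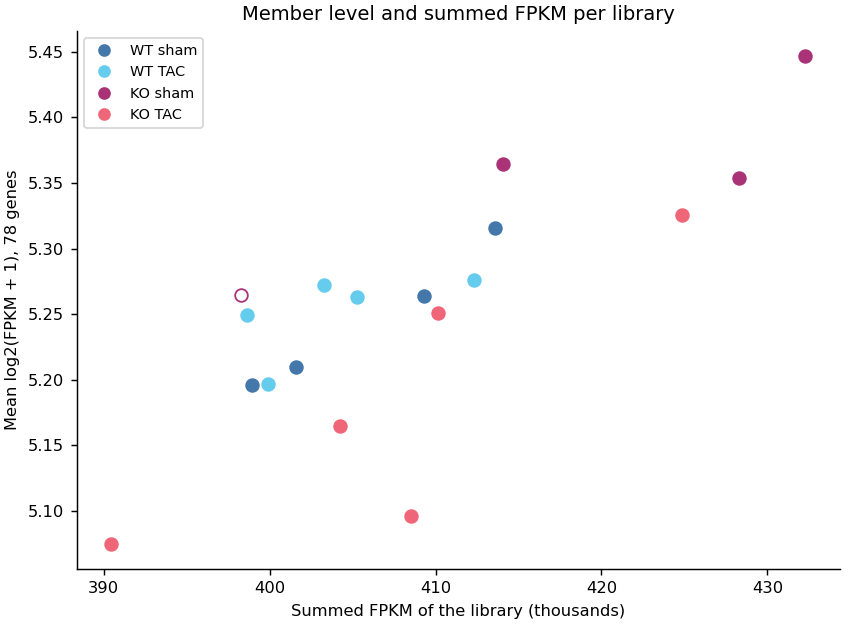
Mean log2(FPKM + 1) of the 78 genes against the summed FPKM of all genes, 1 point per library, coloured by group, with knockout sham replicate 2 as the open circle. The 3 tested knockout sham libraries lie at the upper right, at 414041 to 432264 summed FPKM.

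Mrpl34, a small large-subunit protein with a bacterial counterpart, differed most in sham hearts. It was at 73.85, 75.05, 69.4 and 83.8 FPKM in wild-type sham and at 119.1, 116.4 and 143.7 in knockout sham. The groups did not overlap, knockout sham replicate 2 was at 101.7, and the level in knockout was 1.66-fold that in wild type (log2 difference 0.73 ± 0.117, limma with Benjamini-Hochberg adjusted p = 0.0035). The call held whichever library was left out. After TAC it was at 78.7, 100.2, 95.9, 79.75 and 106.4 FPKM in wild type and at 86.8, 110.4, 100.8, 87.3 and 112.6 in knockout, which overlap (log2 difference 0.11, adjusted p = 0.502). Its level thus fell after TAC in knockout (log2 change -0.34, adjusted p = 0.0212), which did not hold without knockout sham replicate 4 (-0.25, adjusted p = 0.131), knockout TAC replicate 1 (adjusted p = 0.052) or knockout TAC replicate 4 (adjusted p = 0.0512). In wild type the change was 0.28 (adjusted p = 0.0605).

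Mrpl12, the stalk protein that also binds the mitochondrial RNA polymerase, was at 126.6 ± 6.45 FPKM in wild-type sham and 162.8 ± 2.18 in knockout sham, without overlap (log2 difference 0.36, limma with Benjamini-Hochberg adjusted p = 0.0245). Mrpl46, of the central protuberance, was at 24.5 ± 0.654 and 31.2 ± 1.36 FPKM (0.33, adjusted p = 0.0317). Both calls were lost without any 1 of the 3 knockout sham libraries (adjusted p up to 0.0929 for Mrpl12 and 0.115 for Mrpl46). Both were also lost without wild-type sham replicate 1 or 3 (0.0644 and 0.089 for Mrpl12, 0.0572 and 0.089 for Mrpl46), and that of Mrpl46 without wild-type sham replicate 2 or 4 (0.0808 and 0.0596). Without each of those 5 shared libraries Mrpl34 alone of the 78 passed. Over all genes 94, 51 and 74 passed without knockout sham replicates 1, 3 and 4. Without wild-type sham replicates 1 and 3, 86 and 78 of all genes passed, against 151 with the 17 libraries. With a term for the library set the differences were 0.46 for Mrpl34, 0.21 for Mrpl12 and 0.21 for Mrpl46, and 0 genes passed (adjusted p = 0.796, 0.899 and 0.894). All 4 wild-type sham libraries are in 1 set and all knockout sham libraries in the other, so genotype and set cannot be told apart within sham. The term rests on wild-type TAC replicate 5 alone, and losing a call with it cannot show that a difference is absent.

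Between genotypes after TAC, 74 of the 78 genes did not pass. The difference between knockout and wild type was below 0 in 61 of 78 genes (78.2%, against 45.2% of all genes), with a median of -0.071 against 0.016. Of the 78 genes 4 were lower in knockout (5.13%) and 0 higher, where 4.78% of all genes were lower and 6.53% higher (limma with Benjamini-Hochberg adjustment). The share that passed was close to that of all genes. Mrps31 was at 23.2, 23.9, 23.9, 24.5 and 24.6 FPKM in wild-type TAC and at 20.6, 22.9, 20.0, 19.7 and 21.1 in knockout TAC, without overlap (log2 difference -0.19, adjusted p = 0.0168). Mrpl2 was at 54.2 ± 2.18 and 45.1 ± 5.41 FPKM, also without overlap (-0.27, adjusted p = 0.017). These calls held whichever library was left out. Mrpl4 (-0.31, adjusted p = 0.0388) and Mrps28 (-0.28, adjusted p = 0.0414), whose groups overlapped, lost theirs without knockout TAC replicate 1 (0.1 and 0.116), knockout TAC replicate 4 (0.0914 and 0.0919), wild-type TAC replicate 1 (0.0822 and 0.0634) or wild-type TAC replicate 5 (0.0967 and 0.105), among others. Without knockout TAC replicate 1 or 3 or wild-type TAC replicate 1 or 5, 2 of the 78 genes passed. Of all 11937 genes 669, 927, 1198 and 901 passed in those fits, against 1350 with the 17 libraries. Without knockout TAC replicate 2 or 5, 7 of the 78 passed, and 1838 and 1202 of all genes. With the library set as a term no call was kept. The wild-type side of that fit rests on wild-type TAC replicate 5 alone, so it cannot show that the differences are absent. They were -0.23 for Mrps31, -0.27 for Mrpl2, -0.56 for Mrpl4 and -0.48 for Mrps28. Wholly below wild type lay 5 genes and wholly above 0, where 2.87% and 3.83% of all genes did.

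The interaction, the change with TAC in knockout minus that in wild type, was below 0 in all 78 genes, against 44.7% of all genes tested, with a median of -0.20 against 0.028. It ran from -0.62 for Mrpl34 (adjusted p = 0.0568) to -0.0061 for Mrpl28. It passed in 2 genes (2.56%), both below 0, where 0.93% of all genes passed, 0.377% above 0 and 0.553% below (limma with Benjamini-Hochberg adjustment). At an unadjusted p of 0.05, 30 of 78 genes passed (38.5%), against 18.8% of all genes. The knockout sham libraries enter the change with TAC in knockout, the difference in sham and the interaction, so these 3 results share samples. Other gene groups had interactions of a similar size. Of the subunits of complexes II to V 41 of 42 were below 0 (median -0.24), of complex I 37 of 40 (-0.22), of the translation factors 15 of 15 (-0.18) and of the mitochondrial mass genes 15 of 16 (-0.22). Of the cardiomyocyte markers 9 of 10 were below 0 (median -0.24), whereas 8 of 8 macrophage markers (0.43) and 8 of 9 fibroblast markers (0.49) were above 0. Cytosolic ribosomal protein genes had a median of 0.014, with 34 of 76 below 0. These groups were not tested against the 78 genes. Of the 2 parts of the interaction, the difference in sham had a median of 0.14 and that after TAC of -0.071.

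The interaction of Mrps31 was -0.41 ± 0.0754 (limma with Benjamini-Hochberg adjusted p = 0.0229), with wild-type sham at 26.7, 25.7, 25.2 and 26.4 FPKM. The wild-type sham and TAC levels lay between those of knockout sham above and knockout TAC below. The call was lost without knockout sham replicate 1 (-0.37, adjusted p = 0.0686), wild-type sham replicate 3 (0.0611) or wild-type TAC replicate 5 (0.0506), and with the set as a term (-0.41, adjusted p = 0.0508). Mrpl18, of the central protuberance, was at 88.75, 90.9, 87.95 and 86.9 FPKM in wild-type sham and 89.96, 88.3, 88.65, 86.2 and 95.2 after TAC. In knockout it was at 102.3, 98.95 and 104.5 in sham and at 75.8, 89.55, 82.65, 79.4 and 86.1 after TAC. The wild-type groups overlapped, and the knockout groups did not (log2 change -0.30 ± 0.0531, adjusted p = 0.000246). Its interaction was -0.32 ± 0.0721 (adjusted p = 0.0432). That call held in 2 of the 17 fits that each left out 1 library, and the adjusted p rose as far as 0.091 without knockout sham replicate 4. Without knockout sham replicate 1, wild-type sham replicate 3 or wild-type TAC replicate 5, 0 ribosome genes passed the interaction. Over all genes 12, 10 and 17 passed in those fits, against 111 with the 17 libraries. Without knockout TAC replicate 2 or 5, 13 and 8 ribosome genes passed, and 595 and 171 of all genes. With the replicate block 9 ribosome genes passed, and 345 of all genes. The counts over all genes thus moved the same way as those of the ribosome genes.

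Other genes of mitochondrial translation also fell in knockout hearts, where 17.7% of all genes did. Of 26 assembly factors, which modify ribosomal RNA and fit the proteins to it, 14 (53.8%) fell after TAC (median log2 change -0.27), led by the methyltransferase Mrm1 (-0.63), the GTPase Mtg2 (-0.51) and the RNA chaperone Eral1 (-0.46). Of 15 translation factors and insertion factors 11 (73.3%) fell (median -0.30), among them the messenger-binding Lrpprc (-0.44), the recycling factor Mrrf (-0.36), the elongation factor Tufm (-0.33) and Oxa1l, which inserts new chains into the inner membrane (-0.33). Of 20 mitochondrial tRNA synthetase genes and partners 12 (60%) fell (median -0.23), Hars2 (-0.45) and Sars2 (-0.39) among them. Of 10 genes that copy and transcribe mitochondrial DNA 6 (60%) fell, with the helicase Twnk at -0.47 and Polg2 at -0.48. Of 12 genes of mitochondrial RNA processing 7 (58.3%) fell and 1 rose, Rexo2 (0.42), a nuclease that clears short RNA. In wild-type hearts the counts of lower genes were 3 of 26, 2 of 15, 4 of 20, 1 of 10 and 1 of 12 (11.5%, 13.3%, 20%, 10% and 8.33%), where 11.2% of all genes were lower, with Rexo2 higher again (0.29). Of 5 tested ribosome genes with other names 2 fell in knockout, Ptcd3 (-0.33) and Gadd45gip1 (-0.28).

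**Figure D5:**
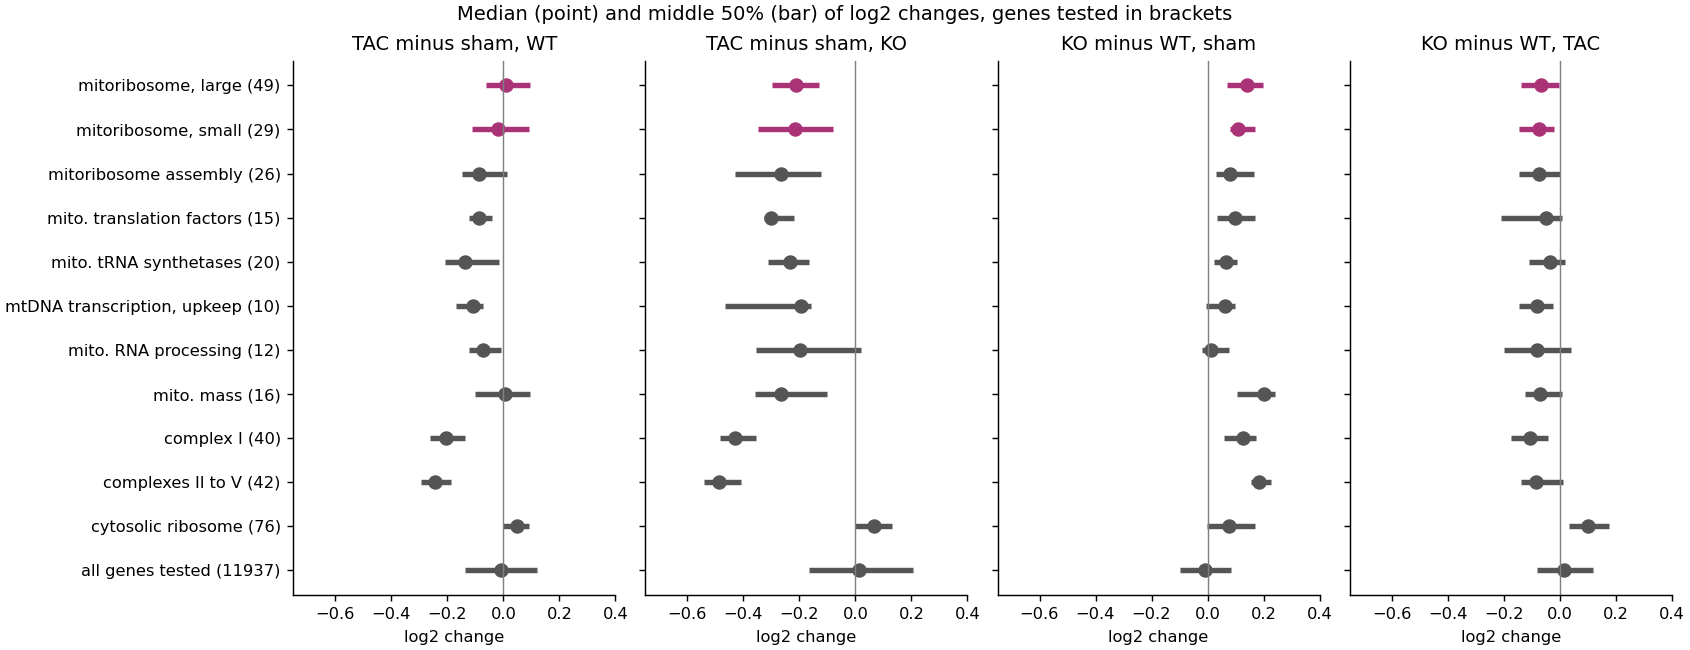
Median log2 change (point) and middle 50% (bar) of the large-subunit genes, the small-subunit genes and other gene groups in 4 comparisons. These are TAC against sham in each genotype and knockout against wild type under each surgery. After TAC in wild type the large and small subunits sit at 0.0092 and -0.020, and the respiratory subunits at -0.20 and -0.24. In knockout the large and small subunits sit at -0.21 and -0.22, and the respiratory subunits at -0.43 and -0.49.

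The nuclear genes for the respiratory chain encode the partners of the proteins made on this ribosome. Of 40 subunits of complex I 18 (45%) fell in wild-type hearts after TAC (median -0.20), and of 42 subunits of complexes II to V 32 (76.2%) fell (median -0.24), beside 5 of 78 ribosome genes (median 0.0017) and 11.2% of all genes. In knockout hearts 35 of 40 and 38 of 42 fell (medians -0.43 and -0.49). Of 16 genes that mark mitochondrial mass 4 fell and 1 rose in wild type (median 0.0074) and 10 fell in knockout (median -0.27), with citrate synthase, Cs, at -0.30 and -0.52. Of the 76 cytosolic ribosomal protein genes 4 rose in wild type (5.26%, against 10.7% of all genes). In knockout 13 rose (17.1%, against 21.1%) and 2 fell (2.63%, against 17.7%), with a median of 0.065. These groups were not tested against each other. Of 14 regulators of mitochondrial biogenesis, Ppargc1a, a coactivator, rose in wild type (0.87) and was at 0.38 in knockout (adjusted p = 0.204, limma with Benjamini-Hochberg). Myc rose in both (0.98 and 1.71), Gabpa, the DNA-binding part of GABP, fell in both (-0.19 and -0.28), and Esrra fell in knockout (-0.42).

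Markers of cell types moved beside these falls. The summed FPKM of 10 cardiomyocyte markers was 57060 to 60760 in knockout sham and 45320 to 51050 in knockout TAC, where 8 of 10 fell, and 56320 to 58330 and 51450 to 55240 in wild type, where 5 fell and 1 rose. That of 9 fibroblast markers was 339.1 to 397.5 in knockout sham and 599.4 to 928.1 in knockout TAC, where 7 of 9 rose, and 340.6 to 444.5 and 410 to 732.4 in wild type, where 4 rose and 1 fell. That of 8 macrophage markers was 128.4 to 136.5 and 184.1 to 239.8 in knockout, where 5 rose, and 109.1 to 188.3 and 143.6 to 211.3 in wild type, where 1 rose. Of 8 endothelial markers 1 rose in knockout and 0 in wild type. None of the cardiomyocyte, fibroblast or macrophage markers was at 0 in any tested library, while the T-cell markers Cd3e and Cd3d were at 0 in some library of every group. Within knockout TAC, replicates 1 and 4 had the lowest ribosome gene means (5.10 and 5.07) and the highest fibroblast sums (926.4 and 928.1). Replicates 2, 3 and 5 did not keep that order, with means of 5.25, 5.16 and 5.33 and sums of 599.4, 741.1 and 736.1. The part of these shifts in the fall of the ribosome genes was not tested.

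Scaling touched the size of the fall in knockout hearts and not its direction. Summed FPKM was 414041 to 432264 in the 3 knockout sham libraries and 390453 to 424875 in knockout TAC. With every library scaled to the same sum 27 genes fell and 3 rose, the median was -0.16, and the median of all genes was 0.064. With median-ratio scaling 41 fell and 1 rose, with medians of -0.23 and 7.3e-05. The ribosome genes are short, with a median exonic length of 2394 bases against 4393 over all tested genes. Other tested genes shorter than that had a median of -0.022 in knockout hearts after TAC, with 22.3% of them lower.

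Several of the genes share sequence with neighbours or copies, which unstranded or multiply assigned reads could mix. Exonic bases are shared with another gene in 33 of the 78, and 24 have a copy elsewhere of at least 95% identity over 200 bases or more. The 141 shared bases of Mrpl18 (chr17:12911349-12916345, minus strand) belong to Tcp1 on the opposite strand, a chaperonin gene whose change in knockout hearts was 0.0061 (adjusted p = 0.95, limma with Benjamini-Hochberg). Mrpl14 (chr17:45686322-45698495, plus strand) shares 106 bases with Tmem63b, which fell in both genotypes too (-0.20 and -0.38). Mrps34 shares 763 bases with Nme3 on the same strand and 1309 with Mapk8ip3, and Mrps36 has 4 pseudogene copies, so both levels are uncertain. The abundant Mrps21 and Mrpl42 each match a pseudogene too, at 97.3% over 264 bases (Gm6181) and 97.2% over 216 bases (Gm6419). No shared exon or copy was found for Mrps31 (chr8:22411361-22429665, plus strand), Mrps28 (chr3:8802146-8923918, minus strand) or Mrpl34 (chr8:71464959-71465747, plus strand). Of 33 genes that start within 1000 bases of a gene on the other strand, 25 had a tested partner. In knockout hearts 11 of these 25 fell after TAC and 1 rose. Of their partners 8 fell and 2 rose. Of all genes 17.7% were lower and 21.1% higher. For 4 of the 25 genes both the gene and its partner fell. Mrpl46 and Mrps11 are each other's partner and both fell (-0.24 and -0.22), so this pair is counted from both sides.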

How the data were processed

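The authors' deposited table gives 1 value per gene and library, and its unit was inferred as FPKM from the values, since it is not named. Library preparation used 1.3 ug of total RNA and a SMARTER mRNA-seq kit, per the labels' protocols. The build was mm10, per the submitters' processing notes; for aligner and counter, not given in the sources used here. Of 18 libraries 17 were tested. A gene needed 1 FPKM in 3 libraries, which kept 11937; values were transformed as log2(FPKM + 1) and fitted with limma 3.58.1 (R 4.3.3; a mean per group, trend, robust). P-values were adjusted by Benjamini-Hochberg over all genes in each of 5 contrasts, at 0.05. The fit was tested on simulated data. Loci and overlaps came from GENCODE M21, copies from blast 2.17.0, promoters from RefSeq. Genes encoded in mitochondrial DNA were not analysed here. The genes, lists and naming rule (the largest changes past the threshold, the most and least abundant, and a fixed set) were chosen with earlier results of these data known. Alternatives were all 18 libraries, a replicate block, a pseudocount of 0.1, no filter, median-ratio scaling, the compared groups alone, each library left out, a library-set term, 2 libraries left out together, a log2 threshold of 0.5 and subunits by structure. Scaling to equal sums was chosen after seeing the data. Depth is unknown, so no counting interval is given.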

Additional observations from a re-analysis of the deposited data

Results flagged for a closer look

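In 117 groups of 4 or 5 libraries examined, 5 held a library far from the rest by Dixon's criterion, which chance alone reaches in about 1 group in 20. Mrpl4, a large-subunit gene, was at 101.3 FPKM in wild-type sham replicate 4, against 75.5 to 79.0 in the other 3. In wild-type TAC replicate 5, Mrpl54 of the stalk was at 65.3 FPKM, against 76.7 to 81.1 in the other 4, and Mrps28 was at 33.1, against 27.0 to 28.6. In wild-type TAC replicate 4, Mrpl57 was at 9.77 FPKM, against 10.99 to 11.28, and Mrps36 was at 65.6, against 72.2 to 74.7.

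The interaction passed in Mrps31 (-0.41) and Mrpl18 (-0.32). Both were lower in knockout hearts after TAC, and neither passed in wild type, where sham and TAC of Mrps31 still did not overlap. The interaction call of Mrps31 held in 14 of 17 fits without 1 library, and that of Mrpl18 in 2 of 17. With the library set as a term neither passed (limma with Benjamini-Hochberg adjusted p = 0.0508 and 0.0765).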

How the results depend on the processing

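None of the called genes changed direction in any comparison, in 27 alternative fits each (26 for the interaction), whereas the median differences between subunits, which lie near 0, changed sign in places. Of 10, 39, 3, 4 and 2 genes called (wild-type TAC, knockout TAC, genotype in sham, genotype after TAC, interaction), the counts became 6, 31, 2, 2 and 1 with no filter, and 0, 3, 1, 0 and 0 with a log2 change of at least 0.5 as well. All genes gave 2615, 4633, 151, 1350 and 111 calls in the main fit. They gave 2223, 4868, 130, 997 and 16 with no filter, and 686, 1740, 78, 347 and 77 at the log2 threshold. At that threshold 3 of the 78 genes were lower in knockout after TAC, a share below the 5.85% of all genes. With the library set as a term they were 10, 39, 0, 0 and 0. All knockout libraries are in 1 set, so this term cannot change the estimates of TAC in knockout. Between genotypes it rests on wild-type TAC replicate 5 alone, so the lost calls cannot show that differences are absent. Of the 10 in wild type 8 had been called without the term. Of all genes 12, 243 and 17 passed for genotype in sham, genotype after TAC and the interaction, against 151, 1350 and 111 without the term. With each library scaled to the same sum the counts were 12, 30, 2, 7 and 2, and 2591, 4756, 185, 1352 and 158 over all genes. Genotype after TAC gave 1 call in a fit of those groups alone, and 822 over all genes. The interaction gave 9 with median-ratio scaling and 9 without wild-type TAC replicate 5 and knockout TAC replicate 2 together. Of all genes 199 and 461 passed in those fits, against 111 before. Leaving out 1 library gave 5 to 10, 24 to 44, 1 to 4, 2 to 7 and 0 to 13 calls. Over all genes those fits gave 1985 to 2749, 3731 to 4733, 51 to 169, 669 to 1838 and 10 to 595. The replicate block gave 10, 43, 3, 6 and 9, and 2379, 4470, 158, 1196 and 345 over all genes. Correlations of same-numbered samples ran from -0.238 to 0.157, and at most 1 sample per comparison correlated best with its own number. With 3 to 5 pairs per comparison this cannot show whether same-numbered samples are related, and they were treated as unpaired.

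The large-minus-small median was 0.029, 0.0019, 0.031, 0.0074 and -0.017 in the order above. In wild-type TAC it was 0.048 by structure. In knockout TAC it was -0.026 by structure, 0.021 with all 18 libraries and -0.045 with the replicate block. In sham it was 0.0020 with all 18 libraries, 0.0079 with the replicate block and 0.057 with the set term. Genotype after TAC gave -0.014 with the set term, and the interaction -0.036 by structure. Leaving out 1 library gave -0.0077 to 0.052, -0.047 to 0.013, 0.00075 to 0.040, -0.023 to 0.022 and -0.042 to 0.013 in the order above.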
